A study of Mus musculus with 27 samples.

Results

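Quercetin, a flavonoid of onions and other plants, was added to a Western diet, and gene expression in the epididymal adipose tissue (EAT), a visceral fat depot of male mice, was compared with that of mice fed the same Western diet without it. All members were taken from the titles of the arrays, which gave 9 mice on the Western diet and 9 on the Western diet containing 0.05% quercetin, 18 of the 27 arrays of the series. The other 9 mice were fed a control diet (AIN93G) and entered the fit with a mean of their own. All mice were male C57BL/6J, were 5 weeks old on arrival, had a standard diet for 1 week, and were fed the experimental diets for 18 weeks. The Western diet gave 39.9% of its energy as fat, mainly butter, and 34.0% as sucrose, with added cholesterol. The diet of the quercetin group differed from it by the quercetin alone. The paper reports that body weight, liver weight, blood glucose and plasma insulin were lower in the quercetin mice. Differences in expression that go with quercetin and with the lower body weight cannot be told apart here. Mice were housed 3 per cage and the cages are not named, so the p-values treat each mouse as independent. RNA of each mouse was read on 1 Affymetrix mouse genome array. Of the probe sets naming 1 gene, the brightest on average over the 27 arrays stood for that gene, and 18193 genes were compared. Levels are given as log2 signal after quantile normalization, and differences are quercetin minus Western diet on that log2 scale.

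White adipocytes store triglyceride and also oxidise fuels, and their mitochondria hold the respiratory chain, whose complexes I to IV pass electrons to oxygen while ATP synthase uses the resulting proton gradient. These complexes sit in folds of the inner membrane called cristae, which need the phospholipid cardiolipin and a protein scaffold at their necks. In obesity the same depot takes up macrophages, which gather around dying adipocytes, take up lipid into lysosomes, and express complement, Fc receptors and the phagocyte NADPH oxidase, while collagen and matrix enzymes increase around them.

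The labelled tissue was checked against marker genes. The mean log2 signal of 5 adipocyte markers lay between 12.54 and 12.95 on all 18 arrays. One protocol field of the labels speaks of liver, and 5 liver markers had medians of 5.43 without and 5.79 with quercetin, but reached 11.75 and 10.48 on Western diet replicates 4 and 6 and 9.70 on quercetin replicate 8. The 6 testis markers reached 9.10 on Western diet replicate 7, 8.80 on quercetin replicate 5 and 12.86 on control diet replicate 6. The median deposited signal per array ran from 25.1 to 38.5 on the Western diet and from 32.8 to 44.0 with quercetin, before normalization.

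A measure of RNA quality differed between the 2 diets. The array carries control probe sets at both ends of the actin and Gapdh transcripts, and a higher 3' to 5' ratio means that less of the full-length RNA was labelled. The actin log2 ratio was 0.58 at the lowest, 0.83 at the median and 0.92 at the highest on the Western diet, and 0.87, 1.12 and 1.37 with quercetin. It was 0.35 higher with quercetin (means 0.79 ± 0.12 and 1.14 ± 0.19, SD, n = 9; exact permutation test, two-sided, p = 1.23e-04), and 8 of 9 quercetin arrays lay above all Western diet arrays. The Gapdh log2 ratio was 0.24 higher (means -0.05 ± 0.14 and 0.19 ± 0.18, SD, n = 9; exact permutation test, two-sided, p = 0.0070). On the control diet the actin ratio spanned 0.84 to 1.62, so that the Western diet arrays were at the low end of the series. With the actin ratio as a covariate, 0 genes passed limma (596 higher and 650 lower at an unadjusted p under 0.05), and all 60 genes that pass without it kept their direction. The part of RNA quality in the differences below was not tested further.

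**Figure D1:**
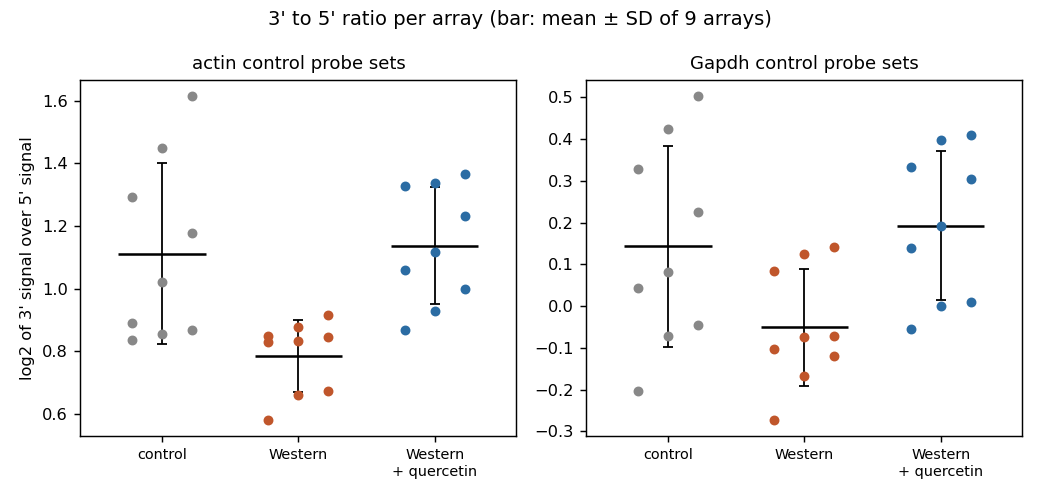
Log2 ratio of the 3' to the 5' signal of the actin and Gapdh control probe sets on each array, by diet, with the mean and SD of 9 arrays. For actin, the quercetin arrays (0.87 to 1.37) lie mostly above the Western diet arrays (0.58 to 0.92).

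The number of genes that passed the test depended strongly on the fit, and most differences of the genes that passed were under 1 on the log2 scale. Of 18193 genes, 46 were higher (0.253%) and 14 lower (0.0770%) with quercetin at an adjusted p under 0.05 in limma with Benjamini-Hochberg adjustment. At an unadjusted p under 0.05, 1330 (7.31%) were higher and 1166 (6.41%) lower. The 9 values of each diet did not overlap in 39 genes that were higher (0.214%) and 10 that were lower (0.0550%), and 11 and 5 of these were also called. Among the called genes, the log2 differences of those that rose ran from 0.23 to 1.78 with a median of 0.36, and those of the genes that fell had a median of -0.48 and reached -1.96. The counts were 486 and 286 when the 18 arrays of the 2 diets were fitted alone, 766 and 615 with array weights, and 473 and 530 with the methods' test after Benjamini-Hochberg adjustment. The split also depended on the scaling between arrays, since 0 genes were higher and 3 lower after a plain shift of all arrays to a common median, and 3 and 0 without normalization. Single arrays moved the counts as well. In limma, 0 genes passed when replicate 7 of the Western diet or any of replicates 1, 2, 3 and 4 with quercetin was left out (from 1076 to 1180 higher and from 971 to 1103 lower at an unadjusted p under 0.05), while 210 were higher and 95 lower without control diet replicate 6. Without the 3 arrays high in testis markers 36 genes were higher and 7 lower, and without the 3 arrays high in liver markers 226 and 356.

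**Figure D2:**
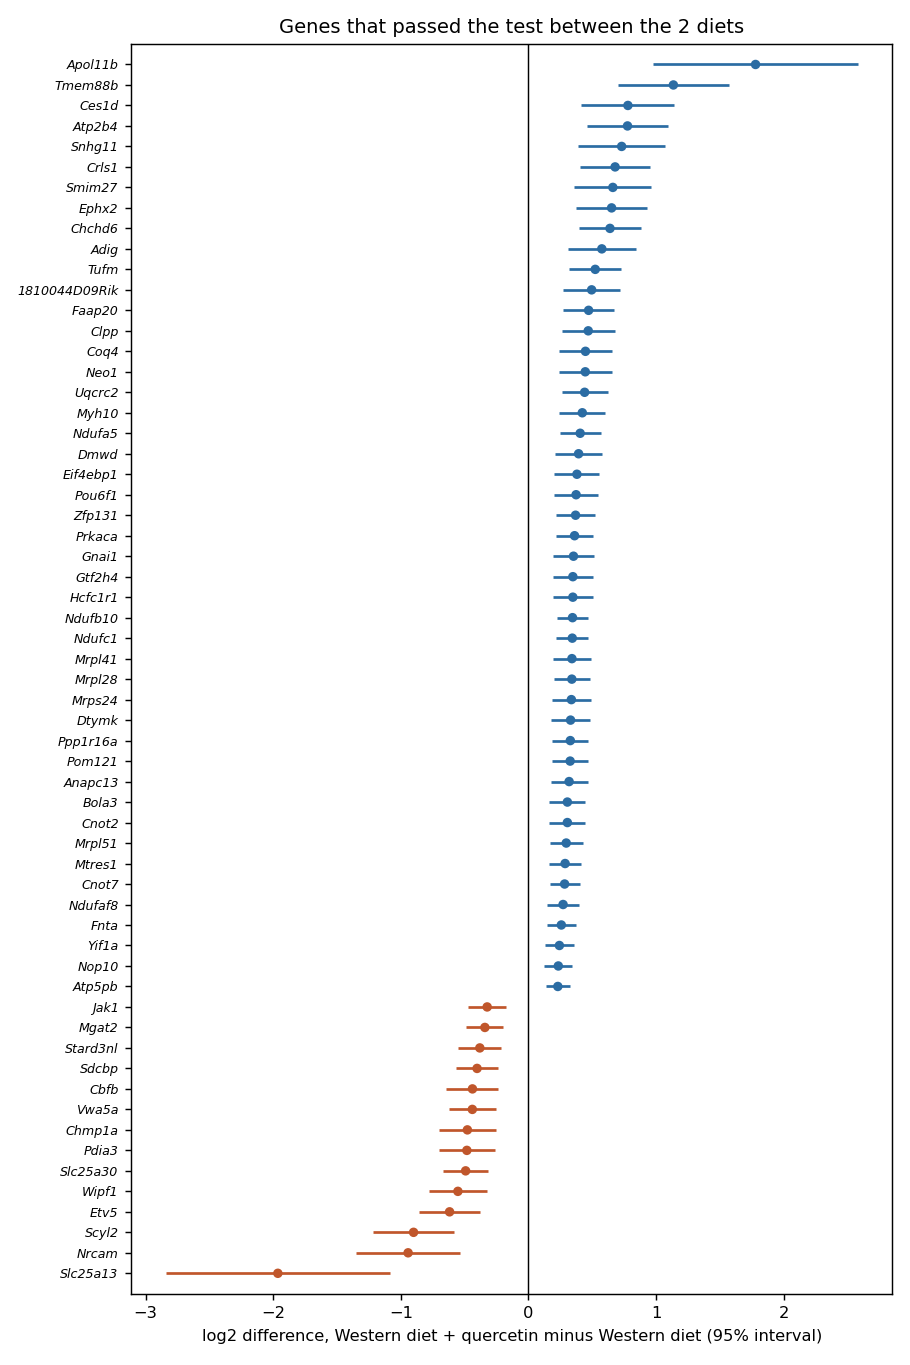
Log2 difference between the Western diet containing quercetin and the Western diet for the 60 genes that passed the test, with the 95% interval from limma. Of these genes, 46 were higher and 14 lower, and most lie within 1 of 0 on the log2 scale.

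Genes of the mitochondria made up the largest group with a shared role among the genes that rose. The lists of mitochondrial genes held 396 measured genes, of which 13 rose (3.28%, against 0.253% of all genes) and 1 fell. At an unadjusted p under 0.05, 140 were higher (35.4%) and 4 lower, and 339 of the 396 differences were positive. Their median difference was 0.14, a level 9.83% higher, against a median of 0.02 over all genes. It was 0.04 after the shift to a common median, where that of all genes was -0.04, and 0.08 with the actin ratio as a covariate, where that of all genes was 0.00.

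The respiratory chain was higher in nearly all its measured members, by a small amount. For the 76 nuclear-encoded members of the 5 complexes together, 74 differences were positive. At an unadjusted p under 0.05, 48 were higher (63.2%, against 7.31% of all genes) and 0 lower. Of the 76, 5 passed the test over all genes (6.58%, against 0.253% of all genes). The median difference of the 76, 0.16, was 0.11 with the actin ratio as a covariate, where that of all genes was 0.00. After the shift to a common median it was 0.09, where that of all genes was -0.04. The mean log2 signal of these 76 genes per mouse was 10.97 at the lowest, 11.08 at the median and 11.18 at the highest on the Western diet, and 11.04, 11.23 and 11.49 with quercetin. Thus 8 of 9 quercetin mice lay above all Western diet mice, and quercetin replicate 8 lay among them. On the control diet the median was 11.22. In a bulk sample such as this, fewer cells of a type and less RNA per cell cannot be told apart.

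Complex I, which takes electrons from NADH, had 3 of 35 measured members that rose (8.57%, against 0.253% of all genes). Ndufb10, an accessory subunit of its membrane arm, had a lowest, median and highest log2 signal of 10.26, 10.40 and 10.46 without quercetin and of 10.53, 10.76 and 10.97 with quercetin. All 9 quercetin mice were above all 9 Western diet mice, and the difference was 0.35 ± 0.06 (SE, adjusted p = 0.024 from limma). Ndufc1, another accessory subunit, ran from 11.24 to 11.62 on the Western diet and from 11.66 to 12.00 with quercetin (difference 0.34 ± 0.06, SE, adjusted p = 0.024). Ndufa5, a subunit of the peripheral arm, ran from 9.81 to 10.17 and from 10.18 to 10.79 (difference 0.41 ± 0.08, SE, adjusted p = 0.031). The groups did not overlap for either gene, and the other probe sets of Ndufc1 and Ndufa5 had differences of 0.18 and 0.31. Of the 35 measured members of complex I, 24 were higher at an unadjusted p under 0.05 (68.6%, against 7.31% of all genes) and 0 lower. The median of the 35 was 0.17, and Ndufv1, the flavoprotein that binds NADH, had 0.34 (adjusted p = 0.069). Ndufaf8, which assists the assembly of complex I, also rose, by 0.27 ± 0.06 (SE, adjusted p = 0.046).

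Complex III, which passes electrons to cytochrome c, had the highest median among the 5 complexes, 0.25 over 10 members, of which 8 were higher at an unadjusted p under 0.05. Its core subunit gene Uqcrc2 had a lowest, median and highest signal of 10.95, 11.10 and 11.26 on the Western diet and of 11.24, 11.48 and 12.06 with quercetin. It rose by 0.44 ± 0.09 (SE, adjusted p = 0.031), with 8 of 9 quercetin mice above all Western diet mice, and its other probe set had 0.19. Uqcr10 and Uqcr11, small subunits of the same complex, had 0.26 and 0.25 (adjusted p = 0.081 and 0.083). For ATP synthase, 9 of 15 members were higher at an unadjusted p under 0.05 with a median of 0.11. Atp5pb, a subunit of its peripheral stalk, rose by 0.23 ± 0.05 (SE, adjusted p = 0.034), from a range of 12.26 to 12.52 to one of 12.48 to 12.75. No gene of complex II, the succinate dehydrogenase, or of complex IV, the cytochrome c oxidase, passed the test over all genes. Sdhb, the iron-sulfur subunit of complex II, had 0.32 (adjusted p = 0.062) while the other 3 subunits had 0.08 to 0.11. The median of these 4 was 0.10, and it was -0.003 with the actin ratio as a covariate. Of 12 members of complex IV, all were positive and 6 were higher at an unadjusted p under 0.05, with a median of 0.13 and the smallest p at Cox7a2 (0.20, adjusted p = 0.059).

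The scaffold of the inner membrane held the 2 largest rises among the 13 mitochondrial genes that rose. Chchd6, a part of the complex that shapes the necks of cristae, had a lowest, median and highest signal of 9.28, 9.34 and 9.55 on the Western diet and of 9.76, 10.12 and 10.18 with quercetin. The groups did not overlap, and the difference was 0.64 ± 0.12 (SE, adjusted p = 0.029). Crls1, which makes cardiolipin, ran from 8.38 to 8.91 on the Western diet and from 8.78 to 9.80 with quercetin (difference 0.68 ± 0.13, SE, adjusted p = 0.031), and only 1 quercetin mouse lay within the Western diet range. The control diet means were 9.93 for Chchd6 and 9.37 for Crls1. The other probe set of each gene gave a smaller difference, 0.21 for Chchd6 and 0.26 for Crls1, neither of them at an unadjusted p under 0.05. Of 21 genes of cristae and cardiolipin, 8 were higher at an unadjusted p under 0.05 and 0 lower. Mfn2 and Opa1, which fuse the outer and inner membranes, had 0.21 and 0.22 (adjusted p = 0.13 and 0.17).

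**Figure D3:**
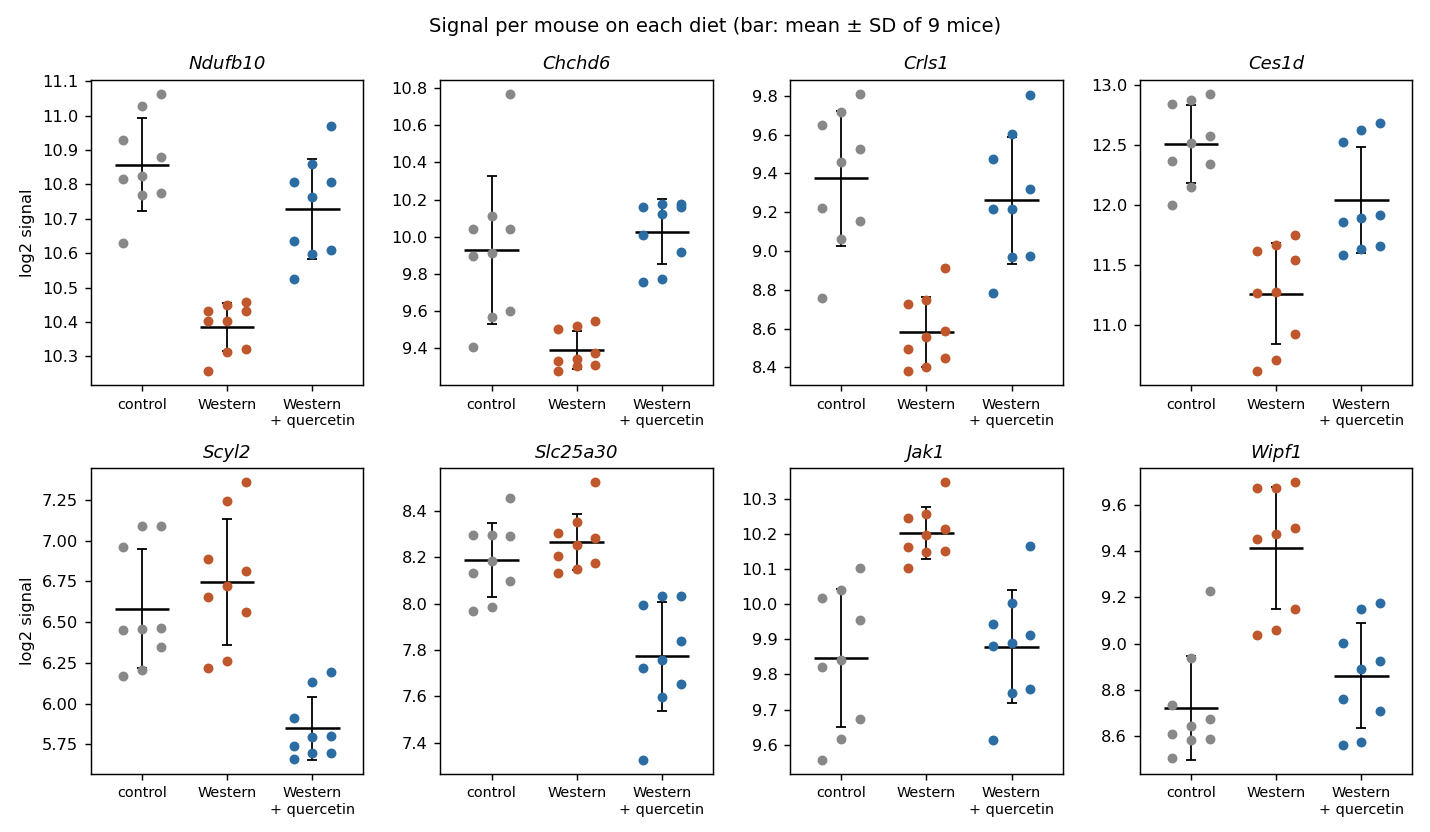
Log2 signal of 8 called genes in each mouse, by diet, with the mean and SD of 9 mice. For Ndufb10, Chchd6, Scyl2 and Slc25a30 the 9 quercetin mice do not overlap the 9 Western diet mice.

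Some genes for making mitochondrial proteins also rose, in a list whose median was near 0 under another scaling. Of 76 mitochondrial ribosomal proteins, 4 rose, 19 were higher at an unadjusted p under 0.05 and 0 were lower. Their median of 0.11 was 0.0066 after the shift to a common median, where that of all genes was -0.04. Mrpl28, a protein of the large subunit, ran from 8.74 to 8.90 on the Western diet and from 8.95 to 9.33 with quercetin, without overlap (difference 0.34 ± 0.07, SE, adjusted p = 0.034). Mrpl41, also of the large subunit, and Mrps24, of the small subunit, did not overlap between the diets either (0.34 each, adjusted p = 0.035 and 0.046 from limma). Mrpl51 rose by 0.30 with 7 of 9 quercetin mice above all Western diet mice. The single other probe set of Mrps24 had -0.04, and those of Mrpl51 had -0.07 and 0.19. Tufm, the elongation factor of mitochondrial translation, rose by 0.52 ± 0.10 (SE, adjusted p = 0.031), from a median of 8.11 to 8.72, but its 3 other probe sets ran from -0.56 to 0.12. Clpp, a protease of the mitochondrial matrix, rose by 0.47 ± 0.10 (SE, adjusted p = 0.046), and its other probe set had 0.23 at an unadjusted p under 0.05. Outside the lists, Mtres1, a factor of mitochondrial transcription under stress (0.29, no overlap), Bola3, which serves the delivery of iron-sulfur clusters (0.30), and Coq4, needed for coenzyme Q (0.45), rose too. By contrast, cytosolic ribosomal proteins had a median of -0.02 over 42 genes, with 3 higher and 5 lower at an unadjusted p under 0.05.

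Promoters of 4 of these genes are shown for short motifs that were more frequent among promoters of the mitochondrial lists than among all promoters. The windows run from 250 bases before to 50 after the RefSeq start of transcription in GRCm38.p6, on the strand of the gene, and capitals mark the motif. Ndufc1 (chr3:51408906-51409205, minus strand) and Mrps24 (chr11:5707652-5707951, minus strand) hold AAGATGGCG, a motif of YY1, at bases 273 and 287 of the 300. Both positions lie after the start of transcription. Mrpl51 (chr6:125191950-125192249, plus strand) and Tufm (chr7:126487105-126487404, plus strand) hold CCGGAAGT, a motif of GABP and other ETS factors, at bases 161 and 249.
Ndufc1: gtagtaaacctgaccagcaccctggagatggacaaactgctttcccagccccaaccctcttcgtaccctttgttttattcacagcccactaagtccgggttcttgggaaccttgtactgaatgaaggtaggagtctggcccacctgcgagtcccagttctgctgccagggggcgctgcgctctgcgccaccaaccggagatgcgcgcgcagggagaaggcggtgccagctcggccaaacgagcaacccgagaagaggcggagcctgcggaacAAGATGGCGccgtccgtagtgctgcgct
Mrps24: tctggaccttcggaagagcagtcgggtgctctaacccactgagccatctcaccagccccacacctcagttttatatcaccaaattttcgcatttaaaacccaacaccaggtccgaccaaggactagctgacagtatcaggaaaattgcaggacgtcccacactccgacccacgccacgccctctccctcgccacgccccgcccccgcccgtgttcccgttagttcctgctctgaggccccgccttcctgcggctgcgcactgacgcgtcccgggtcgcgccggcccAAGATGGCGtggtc
Mrpl51: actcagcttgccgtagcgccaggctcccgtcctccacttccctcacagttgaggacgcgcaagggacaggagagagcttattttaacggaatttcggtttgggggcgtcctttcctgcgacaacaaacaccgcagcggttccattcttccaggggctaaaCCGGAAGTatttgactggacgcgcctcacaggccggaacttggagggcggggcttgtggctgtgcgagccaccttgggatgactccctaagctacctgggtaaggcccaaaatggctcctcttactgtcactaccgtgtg
Tufm: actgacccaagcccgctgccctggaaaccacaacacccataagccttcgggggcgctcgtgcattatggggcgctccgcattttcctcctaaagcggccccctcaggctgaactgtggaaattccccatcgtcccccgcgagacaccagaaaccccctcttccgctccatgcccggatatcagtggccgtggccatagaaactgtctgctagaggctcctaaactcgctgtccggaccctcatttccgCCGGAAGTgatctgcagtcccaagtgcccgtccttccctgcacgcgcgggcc
Both strands were searched in 32851 promoters of 27025 genes. The YY1 motif was in 1.4% of all promoters, in 8.08% of the 396 promoters matched to the mitochondrial lists, and in 3 of the 46 promoters matched to the genes that rose, those of Mrps24, Ndufaf8 and Ndufc1. The GABP motif was in 3.89%, 11.4% and 3 of 46 (Dmwd, Mrpl51 and Tufm). GCGCATGCG, a motif of NRF1, was in 1.75% and 7.58%, and TCAAGGTCA, a motif of estrogen-related receptors, in 0.423% and 1.01%. Neither was found in the 46, and the NRF1 motif was in 1 of 13 promoters matched to the genes that fell (Cbfb). Promoters of 39 of the 46 genes that rose were in the table, and several genes have more than 1.

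Genes of fuel metabolism had mostly positive differences, and the lists described here held 0 called genes in limma. For the breakdown of branched-chain amino acids all 19 measured differences were positive, 11 were higher at an unadjusted p under 0.05, and the median was 0.25, a level 19.3% higher. With the actin ratio as a covariate that median was 0.05, and those of the 3 lists that follow were 0.06 for the tricarboxylic acid cycle, 0.06 for fatty acid oxidation and 0.04 for peroxisomes. Hibadh and Hibch, enzymes of valine breakdown, had 0.29 and 0.43 (adjusted p = 0.082 and 0.12). The tricarboxylic acid cycle and pyruvate dehydrogenase were positive in 19 of 19 genes with a median of 0.20, and Mdh2, the mitochondrial malate dehydrogenase, had the smallest p (0.24, adjusted p = 0.059), while Pdhb, a subunit of pyruvate dehydrogenase, had a larger difference of 0.40. Of 18 genes of mitochondrial fatty acid oxidation, 7 were higher at an unadjusted p under 0.05 with a median of 0.12, and Cpt2, which reforms acyl-CoA inside the mitochondrion, had 0.47 (adjusted p = 0.088). Of 26 peroxisomal genes, 9 were higher and 0 lower at that level, among them Pex11a, which serves peroxisome division (0.45, adjusted p = 0.081).

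Fatty acid synthesis pointed the same way as oxidation. Of 17 genes of de novo lipogenesis, 8 were higher and 0 lower at an unadjusted p under 0.05, with a median of 0.21. Acacb and Acaca, the acetyl-CoA carboxylases, had 0.72 ± 0.25 and 0.61 ± 0.20 (SE, adjusted p = 0.17 and 0.14), with 8 and 7 of 9 quercetin mice above all Western diet mice. Fdft1, the squalene synthase of the cholesterol pathway, ran from 8.83 to 9.49 on the Western diet and from 9.39 to 10.52 with quercetin (difference 0.71 ± 0.17, SE), and narrowly missed the threshold (adjusted p = 0.053). Its list of 18 genes had 2 higher at an unadjusted p under 0.05 (11.1%, against 7.31% of all genes). Fabp5, a fatty acid binding protein of adipocytes and macrophages, did not overlap between the diets, with 13.03 to 13.14 against 13.16 to 13.41, but its difference of 0.21 had an adjusted p of 0.11.

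Among genes of the adipocyte, Ces1d, a carboxylesterase that hydrolyses triglyceride, showed one of the larger rises. Its lowest, median and highest signal was 10.62, 11.28 and 11.75 on the Western diet and 11.58, 11.89 and 12.68 with quercetin. It rose by 0.78 ± 0.18 (SE, adjusted p = 0.046), a level 1.72 times as high, and its 2 other probe sets had 0.76 and 1.16, both at an unadjusted p under 0.05. The control diet mean of 12.51 lay above both. Ces1f, a related enzyme, had 1.17 ± 0.35 (SE, adjusted p = 0.12). Adig, a small protein of fat cell formation, rose by 0.57 ± 0.13 (SE, adjusted p = 0.046), from a range of 10.28 to 11.02 to one of 10.68 to 11.69. Slc2a4, the insulin-regulated glucose transporter, had 0.44 (adjusted p = 0.17). The 16 measured genes of adipocyte identity had a median of 0.01 with 3 higher and 0 lower at an unadjusted p under 0.05, and Adipoq, which encodes adiponectin, had 0.01 with a 95% interval of -0.07 to 0.09. Lep, which encodes leptin, had -0.29 (95% interval -0.81 to 0.22, adjusted p = 0.68). Its highest quercetin value of 12.72 lay within the Western diet range of 12.59 to 12.84, while its lowest was 11.15.

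Genes in no list also rose, among them several of signalling. Prkaca, the catalytic subunit of protein kinase A, ran from 10.89 to 11.25 on the Western diet and from 11.20 to 11.57 with quercetin (difference 0.36 ± 0.07, SE, adjusted p = 0.031). Gnai1, an inhibitory G protein subunit, ran from 12.22 to 12.57 and from 12.49 to 12.95 (difference 0.35 ± 0.08, SE, adjusted p = 0.046). For both, 6 of 9 quercetin mice lay above all Western diet mice. Eif4ebp1, a repressor of translation controlled by mTORC1, rose by 0.38, and all 3 of its probe sets were higher at an unadjusted p under 0.05, up to 0.66. Ephx2, the soluble epoxide hydrolase that breaks down epoxides of fatty acids, rose by 0.65 ± 0.14 (SE, adjusted p = 0.035) from a median of 11.01 to 11.58, though quercetin replicate 8 stood apart at 10.78. Atp2b4, a calcium pump of the plasma membrane, rose by 0.78 ± 0.15 (SE, adjusted p = 0.031), and Neo1, the receptor neogenin, by 0.45, with its 4 other probe sets from -0.46 to 0.59.

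The 2 rises above 1 were in genes of low signal. Apol11b, of the apolipoprotein L family, had a lowest, median and highest signal of 2.23, 2.74 and 4.76 on the Western diet and of 3.50, 4.75 and 6.55 with quercetin (difference 1.78 ± 0.39, SE, adjusted p = 0.046), and its other probe set gave 1.80. All 9 Western diet signals were under 32 on the linear scale, and with a floor of 32 the difference was 0.25 (adjusted p = 0.59), so the size of this rise is uncertain. Tmem88b, a membrane protein gene, ran from 4.90 to 6.09 and from 5.86 to 6.95 (difference 1.14 ± 0.21, SE, adjusted p = 0.029). These 2 genes were the ones among the 46 below the median mean signal of all genes. Snhg11, a noncoding host of small nucleolar RNAs, rose by 0.73, and Smim27, a small membrane protein gene, by 0.66, with its other probe set at -0.13. The other genes that rose have varied roles. Cnot2 and Cnot7 of the CCR4-NOT deadenylase (0.30 and 0.28), Nop10 of the box H/ACA particles (0.23), Pom121 of the nuclear pore (0.33), Gtf2h4 of the transcription factor TFIIH (0.35), and Zfp131 and Pou6f1, transcription factors (0.37 each), serve gene expression. The 2 other probe sets of Cnot7 had -0.03 and -0.02, the 3 of Gtf2h4 ran from -0.94 to 0.08, and the 5 of Cnot2 from -0.22 to 0.56. Among the 46 genes that rose, 37 had other probe sets. For 24 of these 37 all other probe sets were positive. For 13 of the 37 an other probe set was higher at an unadjusted p under 0.05. Anapc13 of the anaphase-promoting complex (0.32), Dtymk, the thymidylate kinase (0.33), and Faap20 of the Fanconi anaemia pathway (0.47) serve cell division or DNA. Yif1a of transport between endoplasmic reticulum and Golgi (0.24), Fnta, a subunit of farnesyltransferase (0.26), Myh10, a nonmuscle myosin (0.42), Hcfc1r1 (0.35), Ppp1r16a (0.33), Dmwd (0.39) and 1810044D09Rik (0.49) complete the 46. The single other probe sets of Myh10 and Pou6f1 had -0.03 and -0.02. Those of Bola3 ran from -0.01 to 0.15, of Dtymk from -0.05 to 0.11 and of Yif1a from -0.08 to 0.10.

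Of the 14 genes that fell, 5 did not overlap between the diets, against 10 of all 18193 genes (0.0550%). Scyl2, a kinase-like protein of clathrin coats, had a lowest, median and highest signal of 6.22, 6.72 and 7.36 on the Western diet and of 5.66, 5.80 and 6.19 with quercetin. It fell by 0.90 ± 0.16 (SE, adjusted p = 0.024), and its 3 other probe sets ran from -0.50 to -0.12. Slc25a30, a carrier of the inner mitochondrial membrane, ran from 8.13 to 8.52 on the Western diet and from 7.33 to 8.03 with quercetin (difference -0.49 ± 0.09, SE, adjusted p = 0.024). Its control diet mean of 8.19 was close to that of the Western diet, 8.26, and the control diet mean of Scyl2, 6.58, was also nearer to the Western diet mean of 6.75 than to the quercetin mean of 5.85. Pdia3, a disulfide isomerase of the endoplasmic reticulum (-0.48), Stard3nl, a cholesterol-binding protein of late endosomes (-0.38), and Mgat2, a Golgi enzyme of N-glycan branching (-0.34), were the other 3. The second probe set of Mgat2 had 0.24, the opposite sign.

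Slc25a13, the mitochondrial carrier of aspartate and glutamate, was the 1 member of the mitochondrial lists that fell. Its signal was low, with a lowest, median and highest of 5.05, 5.85 and 6.49 on the Western diet and 1.55, 4.29 and 5.42 with quercetin, and it fell by 1.96 ± 0.43 (SE, adjusted p = 0.046), or by 0.77 with a floor of 32 (adjusted p = 0.017). Nrcam, a cell adhesion molecule known from neurons, fell by 0.94 ± 0.20 (SE, adjusted p = 0.036), and its 3 other probe sets were all negative. Membrane trafficking was represented by Sdcbp, the adaptor syntenin (-0.40, adjusted p = 0.031), and Chmp1a of the ESCRT machinery (-0.48, adjusted p = 0.046), and Vwa5a, which has a von Willebrand domain, had -0.44 (adjusted p = 0.034). Both other probe sets of Sdcbp were lower at an unadjusted p under 0.05, down to -0.72.

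The remaining 4 genes that fell belong to signalling and transcription in blood cells and elsewhere. Jak1, a kinase of many cytokine receptors, had a lowest, median and highest signal of 10.10, 10.20 and 10.35 on the Western diet and of 9.61, 9.89 and 10.17 with quercetin. It fell by 0.32 ± 0.07 (SE, adjusted p = 0.046), with 8 of 9 quercetin mice below all Western diet mice. Wipf1, which binds WASP and regulates actin in leukocytes, ran from 9.04 to 9.70 on the Western diet and from 8.56 to 9.18 with quercetin (difference -0.55 ± 0.11, SE, adjusted p = 0.031). Etv5, an ETS transcription factor, ran from 6.92 to 7.85 and from 6.58 to 7.32 (difference -0.62 ± 0.12, SE, adjusted p = 0.029), and Cbfb, the partner of the Runx factors, had -0.44 (adjusted p = 0.046). The ETS list as a whole had a median of 0.00 over 18 genes, and Spi1, which encodes the macrophage factor PU.1, had -0.74 (adjusted p = 0.18). The list of JAK kinases, STATs and related receptors had a median of -0.08, with Jak1 as its 1 called member of 22 (4.55%, against 0.0770% of all genes).

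Macrophage markers had a larger median difference than the mitochondrial genes, were all of one sign, and none passed the test over all genes. All 20 measured macrophage markers were negative, with a median of -0.73, or -39.7% on the linear scale, and 18 were lower at an unadjusted p under 0.05. Fcgr1, which binds IgG with high affinity, had a lowest, median and highest signal of 6.69, 7.77 and 8.37 on the Western diet and of 5.61, 6.65 and 7.34 with quercetin (difference -1.05 ± 0.25, SE, adjusted p = 0.059). Itgam, the integrin CD11b, had -0.85 (adjusted p = 0.094) with 6 of 9 quercetin mice below all Western diet mice. Adgre1, which encodes F4/80, ran from 9.53 to 11.06 and from 8.97 to 10.48 (difference -0.69 ± 0.22, SE, adjusted p = 0.14), so that the groups overlapped.

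The quercetin mice were spread widely in these genes. The mean log2 signal of the 20 markers was 9.59 at the lowest, 10.62 at the median and 10.89 at the highest on the Western diet, and 8.90, 9.54 and 10.40 with quercetin. Quercetin replicates 7, 8 and 9 had 10.38, 10.40 and 10.24 and replicate 5 had 9.85, within the Western diet range, while the other 5 lay below it. The 2 lowest Western diet levels, 9.59 and 9.81, were those of replicates 4 and 6, the arrays with the most liver marker signal. On the control diet the range was 8.54 to 9.78. The median difference of the list was -0.49 with the actin ratio as a covariate and -1.04 without the 3 arrays high in liver markers.

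**Figure D4:**
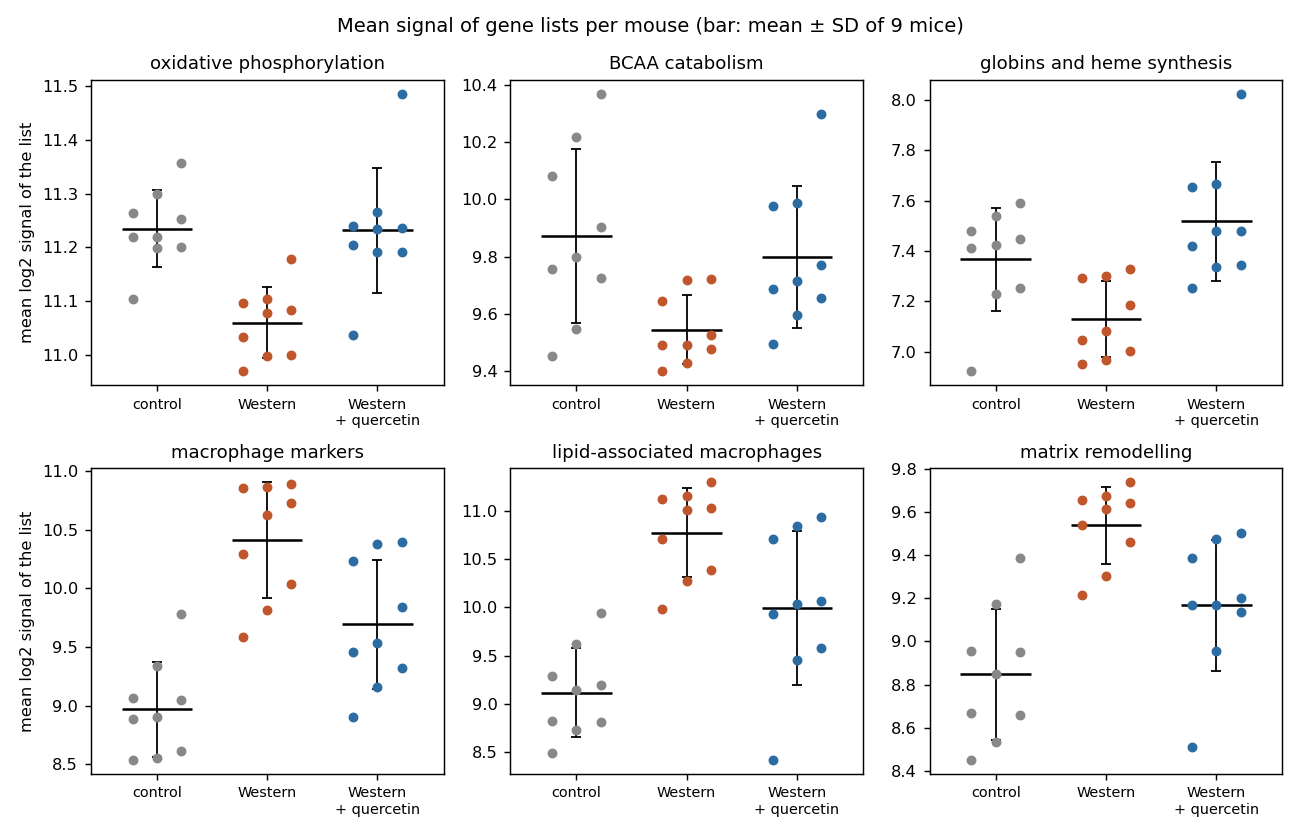
Mean log2 signal per mouse of 6 gene lists, by diet, with the mean and SD of 9 mice. The respiratory chain of 8 quercetin mice lies above all Western diet mice, whereas 4 quercetin mice lie within the Western diet range for the macrophage markers.

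Genes of lipid-laden macrophages had a median of -0.82 over 16 genes, with 11 lower and 1 higher at an unadjusted p under 0.05. Trem2, their lipid receptor, had a lowest, median and highest signal of 7.30, 9.45 and 9.88 on the Western diet and of 2.82, 7.08 and 9.46 with quercetin (difference -1.96 ± 0.70, SE, adjusted p = 0.18). Cd9, which had the smallest p of the list, had -0.73 (adjusted p = 0.11). Ctsk and Dcstamp, a protease and a fusion protein of these cells, had -0.96 and -0.95 (adjusted p = 0.13 each). The exception was Fabp5, given above. Genes of resident and alternatively activated macrophages had a median of -0.30 over 17 genes, of which 11 were negative and 6 positive. At an unadjusted p under 0.05, 7 were lower and 0 higher. Among these 7 were Mrc1, the mannose receptor CD206 (-0.47 ± 0.13, SE, adjusted p = 0.088), and Clec10a, a lectin (-0.53, adjusted p = 0.081). Itgax, which encodes CD11c, had -1.04 ± 0.34 (SE, adjusted p = 0.14).

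The machinery of phagocytes had negative medians too, in lists that partly share members with the macrophage markers. Fcgr1 is also in the Fc gamma receptor list, and C1qa and Itgam are also in the complement list. Of 20 genes of the leukocyte cytoskeleton 19 were lower at an unadjusted p under 0.05, with a median of -0.63 and Wipf1 as the called member. With the actin ratio as a covariate that median was -0.41. Of 17 genes of Fc gamma receptor phagocytosis 13 were lower (median -0.57), and of 18 complement genes 13 were lower and 1 higher (median -0.57). Serping1, the C1 inhibitor, had -0.59 (adjusted p = 0.081) and C1qa, a chain of C1q, -0.69 (adjusted p = 0.083). Of 19 Toll-like receptors and adaptors 11 were lower and 1 higher, with a median of -0.41, and Tlr7 and Tlr2 had -0.74 and -0.53 (adjusted p = 0.14 and 0.15). For MHC class II presentation the count was 6 of 14 (median -0.33), and Ciita, its master regulator, had -0.53 (adjusted p = 0.12). Of 32 chemokines and receptors 10 were lower and 2 higher, with a median of -0.29 that was -0.12 with that covariate. Ccr2, the receptor that brings monocytes into tissue, ran from 9.02 to 9.98 on the Western diet and from 7.53 to 9.18 with quercetin (difference -0.77 ± 0.21, SE, adjusted p = 0.088), with 8 of 9 quercetin mice below all Western diet mice. Cxcl9, an interferon-induced chemokine, had 0.59 (adjusted p = 0.13), the opposite sign.

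Of 39 lysosomal genes, among them the macrophage marker Ctss, 23 were lower and 1 higher at an unadjusted p under 0.05. The list had a median of -0.23 and no called member. The median was -0.14 with the actin ratio as a covariate. Ctsa, a lysosomal carboxypeptidase, had medians of 10.71 and 10.04 on the Western diet without and with quercetin, with 4 of 9 quercetin mice below all Western diet mice (difference -0.51 ± 0.15, SE, adjusted p = 0.11). Atp6v1a, of the proton pump, had -0.37 and Npc1, which exports cholesterol, -0.49 (adjusted p = 0.10 and 0.11). The promoter of Ctsa (chr2:164833523-164833822, plus strand) is shown because it holds TCACGTGA, the core of the CLEAR motif of TFEB and related factors, at bases 238 and 255, in capitals.
Ctsa: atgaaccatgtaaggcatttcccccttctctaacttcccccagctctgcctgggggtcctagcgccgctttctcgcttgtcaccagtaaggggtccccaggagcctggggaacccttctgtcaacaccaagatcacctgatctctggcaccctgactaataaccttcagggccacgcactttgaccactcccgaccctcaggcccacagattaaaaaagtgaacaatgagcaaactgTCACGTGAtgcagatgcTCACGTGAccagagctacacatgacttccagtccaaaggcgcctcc
The motif reads the same on both strands. It was in 0.974% of all promoters, in 7 of the 37 promoters matched to the lysosomal list, and in 2 of the 46 matched to the genes that rose, those of Anapc13 and Smim27. GAGGAAGT is a motif of PU.1 that ends in the same letters as the GABP motif but cannot match at the same position. It was in 3.20% of all promoters, in 3 of the 16 matched to the macrophage markers and in 4 of the 37 matched to the lysosomal list. One promoter each held it among the 13 matched to the genes that fell (Cbfb) and the 46 matched to those that rose (Ndufa5).

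**Figure D5:**
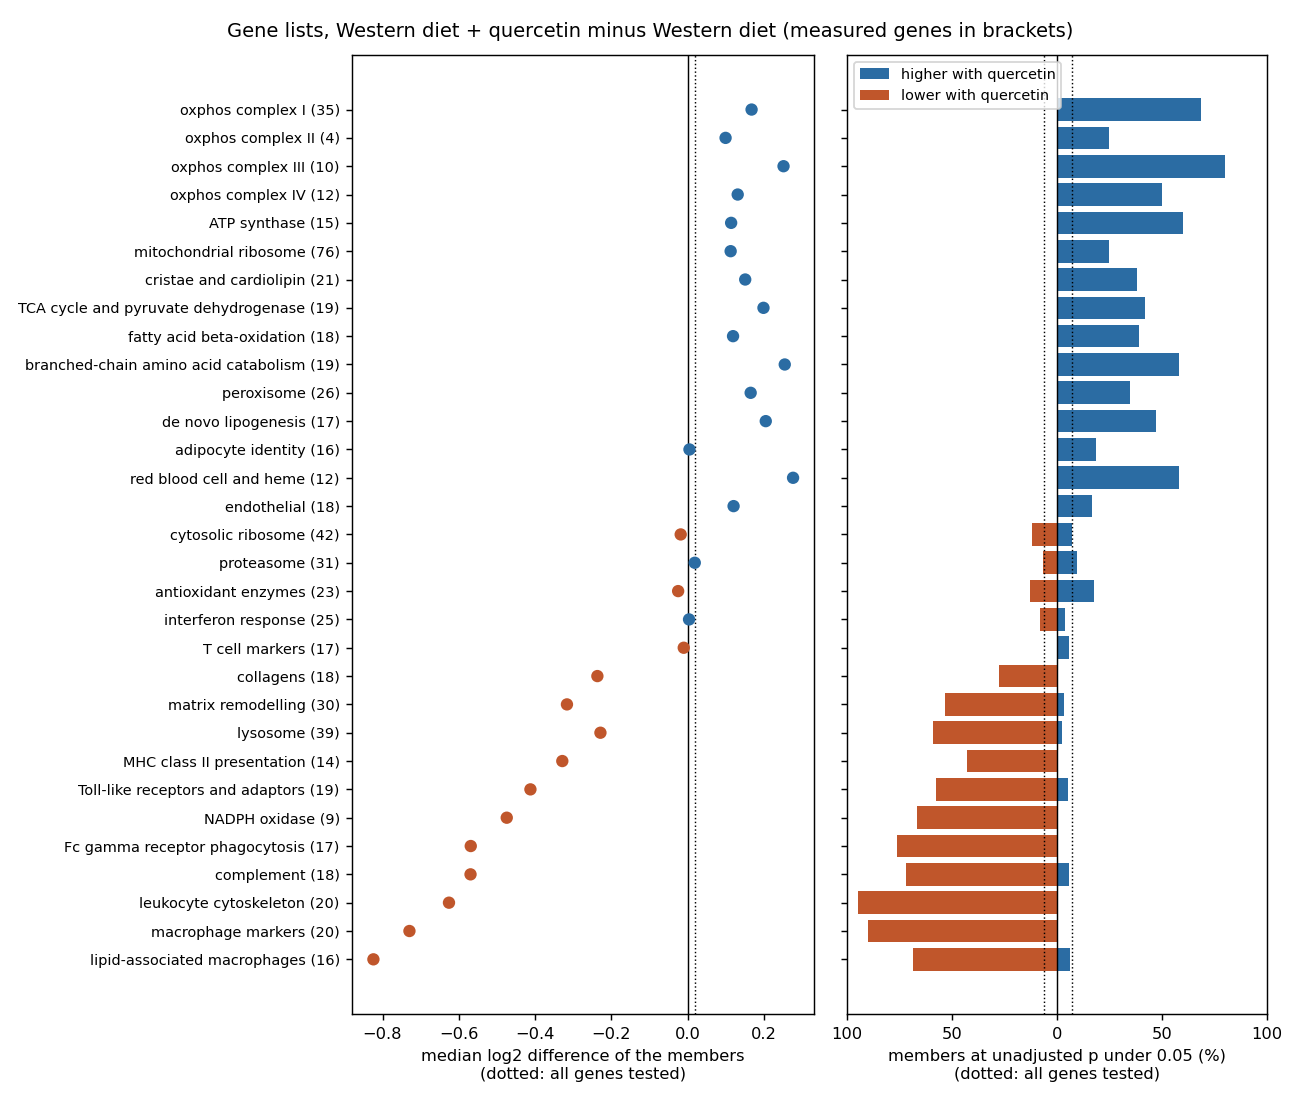
Median log2 difference of the members of 31 gene lists (left) and the percent of members higher or lower at an unadjusted p under 0.05 (right), with the measured genes in brackets and all genes tested as dotted lines. Lists of mitochondria and fuel metabolism lie to the right of 0 and those of macrophages, phagocytosis and matrix to the left, while cytosolic ribosome, proteasome and T cell markers lie near 0.

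Matrix and proliferation genes also had negative medians, with 0 called genes in limma. Of 30 genes of matrix remodelling, 16 were lower and 1 higher at an unadjusted p under 0.05 (median -0.32), and 17 of 18 collagens were negative with 5 lower (median -0.24, or -0.15 with the actin ratio as a covariate). Timp1, an inhibitor of metalloproteinases, ran from 7.17 to 8.82 on the Western diet and from 5.44 to 7.69 with quercetin (difference -1.10 ± 0.28, SE, adjusted p = 0.081). Fn1, fibronectin, had -0.62 (adjusted p = 0.085) and Lox, the collagen crosslinker, -0.68 (adjusted p = 0.10). Of 26 cell cycle genes 8 were lower, with a median of -0.48 that was 0.03 with the actin ratio as a covariate. Pcna, the sliding clamp of DNA replication, had a lowest, median and highest signal of 10.52, 11.09 and 11.38 on the Western diet and of 10.10, 10.47 and 10.74 with quercetin (difference -0.52 ± 0.12, SE, adjusted p = 0.052). Mcm6, of the replicative helicase, had -0.64 (adjusted p = 0.064).

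Genes of adipokines, inflammation, oxidant production and antioxidant defence that were also assayed by RT-PCR were looked up on the arrays. A single-gene probe set was found for 22 of 23. In limma 0 of them passed the test over all genes, with 1 higher and 9 lower at an unadjusted p under 0.05. In the NADPH oxidase of phagocytes, Ncf1 had -0.85, Cybb -0.83, Cyba -0.77 and Ncf4 -0.47, each at an unadjusted p under 0.05. The list of 9 oxidase genes had 6 lower, with a median of -0.47 that was -0.22 with the actin ratio as a covariate. Among antioxidant enzymes, Cat, catalase, ran from 11.98 to 12.70 on the Western diet and from 12.57 to 12.92 with quercetin (difference 0.34 ± 0.09, SE, adjusted p = 0.094). Sod1, superoxide dismutase, had 0.11 with a 95% interval of -0.03 to 0.26, and Gpx1, glutathione peroxidase, 0.03 with an interval of -0.07 to 0.13. The 23 antioxidant genes had a median of -0.02 with 4 higher and 3 lower. Nfe2l2, which encodes the oxidant-sensing factor Nrf2, had -0.22 (adjusted p = 0.28), and its targets Hmox1 and Nqo1 had -0.72 and 0.22 (adjusted p = 0.25 and 0.57). Gsta4, a glutathione transferase for lipid aldehydes, had 1.05 ± 0.30 (SE, adjusted p = 0.11) with a control diet mean of 9.06 above both.

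Ppargc1a, the coactivator of mitochondrial biogenesis, had 0.17 with a wide interval of -0.36 to 0.70. The inflammatory genes Tnf and Ccl2 had -0.35 (95% interval -1.42 to 0.71) and -0.65 (-1.42 to 0.12), and the transcription factor gene Rela, of NF-kappaB, had -0.003 (-0.14 to 0.13). Il10, Il2ra and Ifng, cytokine or receptor genes of low signal, had -0.33, -0.03 and 0.09 with intervals that all included 0. At these widths a moderate difference of Tnf, Il10 or Ifng was not detectable.

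Lists of lymphocytes and vessels had medians nearer to 0 than the macrophage markers. The 17 T cell markers had a median of -0.01, with 1 higher at an unadjusted p under 0.05 (5.88%, against 7.31% of all genes) and 0 lower. The higher one was Zap70, a kinase of the T cell receptor (0.70, adjusted p = 0.13). All 18 endothelial genes were positive with a median of 0.12 and 3 higher, but the median was -0.13 with the actin ratio as a covariate. B cell and natural killer cell lists had medians of -0.16 and -0.07 with 2 and 1 lower (14.3% and 7.69%, against 6.41% of all genes). The signs turned with that covariate, to 0.04 and 0.15, while the T cell median was 0.16. Without normalization the natural killer cell median was 0.05. Mast cell and dendritic cell lists had medians of -0.39 and -0.20. The neutrophil list had a positive median of 0.20, with 8 of 11 genes positive, and at an unadjusted p under 0.05 had 1 higher and 2 lower. Its members S100a9 and S100a8 had 0.72 and -1.03 (adjusted p = 0.35 and 0.15). The neutrophil median ran from -1.03 to 0.38 over the alternatives. Interferon-induced genes had a median of 0.00 over 25 genes, clock genes 0.04 with 0 past an unadjusted p under 0.05 in either direction, and proteasome subunits 0.02. Adipocyte markers of the tissue check had a median of 0.00 and liver markers of -0.99, with none of the 5 liver markers at an unadjusted p under 0.05.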

How the data were processed

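EAT RNA of 27 male mice, 9 per diet, was hybridised to 1 array per mouse. The deposited values are linear probe set intensities, which the authors obtained with MAS5 and GeneSpring. The median of these intensities differed between arrays. The intensities of 45037 probe sets, without 64 control probe sets, were quantile normalized over the 27 arrays, set to a floor of 1 and converted to log2. Probe sets named 1 gene (34945), several (932) or none in the annotation used here (9160), and 18193 genes were tested by their probe set with the highest mean. A linear model with 1 mean per diet was fitted in limma 3.58.1 (R 4.3.3) with a mean-variance trend, and p-values were adjusted by the Benjamini-Hochberg method over all genes with a threshold of 0.05. Errors of differences are standard errors from the fit. Control probe set ratios were compared by an exact permutation test over all 48620 splits. The number of arrays limits the precision, and mice are assumed independent.

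The genes named are the 60 past the threshold, up to 4 of the members of each described list with the smallest p, and genes assayed by RT-PCR. Trem2 was named through the list of fat cell expansion and was not among the members with the smallest p in the list of lipid-laden macrophages. The members and the 71 gene lists were chosen with earlier results of these data known. Promoters (GRCm38.p6) were taken from RefSeq. Alternatives covered scaling, floor, low signal, probe set choice, arrays fitted, variance model, array weights, replicate block, RNA ratio, threshold, the methods' test and each array left out. Arrays high in testis or liver markers were left out in alternatives chosen after seeing the data.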

Additional observations from a re-analysis of the deposited data

Results flagged for a closer look

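In 12 of 266 groups of 9 mice looked at for the genes named, 1 mouse lay far from the others by Dixon's criterion, which chance meets in about 1 of 20 groups. Quercetin replicate 3 was the lowest for Lep (11.15, next 12.46), Hmox1 (5.83, next 7.22) and Mest (10.01, next 11.46) and the highest for Acaca (11.82, next 10.86). Western diet replicate 2 was the lowest for Bola3 (10.33), Ndufc1 (11.24) and Chmp1a (9.05), and all 3 genes passed the test between the diets. Quercetin replicate 8 was the lowest for Ephx2 (10.78), and quercetin replicate 9 was the lowest for Ndufaf8 (9.20) and for Ifng, where it was at the floor of 0.00 on the log2 scale. Western diet replicate 7 was the highest for Ccr2 (9.98), and quercetin replicate 2 the highest for Bpgm (9.16).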

How the results depend on the processing

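All 60 genes kept their direction under all alternatives in which they were measured, except Gtf2h4 and Tufm, which had -0.118 and -0.0233 when a gene was given the average of its probe sets. The counts of genes past the threshold moved widely. Compared with 46 higher and 14 lower, they were 0 and 3 with arrays shifted to a common median, 3 and 0 without normalization, 0 and 0 with that average (956 and 1148 at an unadjusted p under 0.05), 0 and 0 in limma without the variance trend (1265 and 1141), and 0 and 0 with the actin ratio as a covariate (596 and 650). They were larger, 486 and 286, when the 18 arrays of the 2 diets were fitted alone, and 485 and 284 when these were also normalized alone. Among the 9096 genes above the median mean they were 135 and 65, and with array weights 766 and 615. The methods' test, where only the ANOVA over the 3 diets was adjusted over genes, gave 473 and 530. At an adjusted p under 0.10 in limma, 157 and 97 passed. A floor of 32 gave 53 and 26. Without the arrays high in testis markers 36 and 7 passed, and without those high in liver markers 226 and 356. Leaving out 1 array gave between 0 and 210 genes higher and between 0 and 95 lower. Besides those given above, counts moved by over 1.5 times without control diet replicates 1, 2, 3, 5 or 7 (from 21 to 59 higher), Western diet replicates 1, 2, 3, 4, 5, 6 or 8 (from 1 to 44 higher) or quercetin replicates 5, 7 or 8 (from 6 to 96 higher). The actin ratio difference stayed between 0.32 and 0.39 and that of Gapdh between 0.22 and 0.27.

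With the replicate block, 6 genes were higher and 2 lower, and 7 of the 60 were kept. Mice with the same number correlated from -0.20 to 0.37 in their deviations from the diet means, and the numbers are not known to pair mice. The cause of these shifts was not tested, other than that some alternatives change the number of arrays or genes. Genes of low signal were measured poorly, and the intervals given for them are wide.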

Other observations

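Genes of red blood cells and heme synthesis were higher with quercetin in all 12 measured members, with a median of 0.28, and 7 were higher at an unadjusted p under 0.05, but 0 passed limma over all genes. Fech, the enzyme that inserts iron into heme, ran from 9.71 to 10.04 on the Western diet and from 10.05 to 10.40 with quercetin without overlap (difference 0.30 ± 0.07, SE, adjusted p = 0.059). Bpgm, which makes a regulator of haemoglobin, had 0.56, and Slc4a1, the anion exchanger of the red cell, 1.03 (adjusted p = 0.059 and 0.079). The list level per mouse was 6.95 to 7.33 on the Western diet and 7.25 to 8.03 with quercetin, and 8 of 9 quercetin mice lay above all Western diet mice.

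Some genes tied to the expansion of fat cells varied widely between quercetin mice. Cavin2, of the same list, did not (12.68 to 12.89 with quercetin, difference 0.18, adjusted p = 0.16). Mest, a marker of fat cell growth, ran from 12.28 to 12.64 on the Western diet and from 10.01 to 12.51 with quercetin, with 7 of 9 below all Western diet mice (difference -0.65 ± 0.29, SE, adjusted p = 0.31). Bmp6, a regulator of hepcidin, had 0.58 (adjusted p = 0.094), and Slc11a1, an iron transporter of macrophages, -0.86 (adjusted p = 0.13).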
